A study of Mus musculus with 4 samples.

Results

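Ppara, Creb3l3, Fgf21, Bdh1 and Acat1 are 5 genes of the fasting response of the liver, and they are described here on the arrays of Cnot3+/- and wild-type mice. The members were taken by symbol: every probe set that the array platform's annotation pairs with exactly 1 gene symbol, where that symbol is 1 of these 5. This gave 5 of 18194 genes, and 10 probe sets of the 34958 with a single symbol and of 45101 in all. Ppara and Acat1 have 3 each, Bdh1 has 2, and Creb3l3 and Fgf21 have 1 each. The rule takes genes by name and uses no measured value, but the members were chosen with earlier results of these data known. The arrays came from 2 mice with the genotype Cnot3+/- (Cnot3 heterozygotes by their label) and 2 wild-type mice, all male C57BL/6J, 12 weeks old, kept on normal chow and then deprived of food for 24 h. Total liver RNA of each animal was hybridised to its own one-colour array. How the Cnot3 allele was made is not stated in the labels. The CNOT3 protein belongs to CCR4-NOT, the complex that removes poly(A) tails from mRNAs.

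In fasting, fatty acids from adipose tissue reach the liver, are oxidised in mitochondria to acetyl-CoA, and part of that acetyl-CoA is turned into ketone bodies for export to brain and muscle. PPARalpha, the product of Ppara, is the nuclear receptor that switches on the genes of fatty acid oxidation and ketogenesis in this state. CREB3L3, also called CREBH, is a transcription factor held in the endoplasmic reticulum membrane until it is cut and released, and in mouse liver it acts together with PPARalpha on Fgf21. FGF21 is a hormone secreted by the fasting liver. Acat1 and Bdh1 encode mitochondrial enzymes at the start and the end of the pathway: the thiolase that joins acetyl-CoA units to acetoacetyl-CoA, and the dehydrogenase that converts acetoacetate into beta-hydroxybutyrate.

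Fgf21 is a member on which the products of 2 other members, Ppara and Creb3l3, act together, so the 250 bases before its transcription start are shown. They lie at chr7:45615491-45615740 on the minus strand of GRCm38.p6, as RefSeq gives them, and read 5′ to 3′ towards the gene.
Fgf21 upstream: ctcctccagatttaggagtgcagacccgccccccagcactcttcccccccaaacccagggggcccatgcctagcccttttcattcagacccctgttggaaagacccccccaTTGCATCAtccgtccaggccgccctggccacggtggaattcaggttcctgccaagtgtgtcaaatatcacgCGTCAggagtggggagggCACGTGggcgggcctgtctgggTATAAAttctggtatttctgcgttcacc
Capitals mark 4 letter motifs searched on both strands, none of which overlaps another. TTGCATCA, the core of an element read by C/EBP and ATF proteins, lies 139 to 132 bases before the start and is found in 0.792% of the 32851 RefSeq windows of this length. CGTCA, the reverse complement of TGACG and the core of a cAMP response element, lies 68 to 64 bases before it (17.8% of windows hold TGACG on either strand). The E box CACGTG lies 50 to 45 bases before the start (6.02% of windows), and TATAAA lies 28 to 23 bases before it (12.4%). AGGTCA, the core that nuclear receptors such as PPARalpha read, and the full TGACGTCA were also searched. These letters are not in this window, and 14.0% and 1.55% of all windows hold them. Among the other members, AGGTCA is in a window of Creb3l3, and TGACG is in windows of Creb3l3 and Ppara. A match is a string of letters and not a shown binding site. RefSeq windows were found for 4 of the 5 genes.

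The arrays had median log2 values between 4.62 and 4.66. Hepatocyte markers, 9 of 10 tested, had mean log2 values of 12.93 and 12.73 in Cnot3+/- livers, against 12.64 and 12.70 in wild-type livers. Their median difference was 0.05, with groups apart on the higher side for Ass1 at 0.71 (SE 0.22) and Tat at 0.56 (SE 0.27) and on the lower side for Ttr at -0.08. The 1 Ass1 probe set tested read only 6.63 to 7.66, where the other markers of the list read 10.23 or more. The Cnot3 probe set of highest signal was at 7.70 and 7.86 in the arrays labelled Cnot3+/-, against 7.48 and 8.14 in wild-type (difference -0.03, SE 0.25). Its other probe set was at 5.54 and 5.54 in the arrays labelled Cnot3+/-, against 5.33 and 5.52 in wild-type (difference 0.11, SE 0.14), with the groups apart on the higher side. The Cnot3 signal therefore does not bear out the labels. The sources used here give neither the design of the allele nor where in the gene these probes lie. The labels could thus not be checked by this signal, and every direction below is that of the arrays as labelled. The Cnot3+/- arrays stood further apart from each other than the wild-type arrays did: 2.67% of the probe sets tested differed by at least 2-fold between them, against 0.613% between the wild-type arrays. With 2 animals per group, precision is limited throughout, and an exact permutation test of a single value cannot go below p = 0.333.

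None of the 5 genes passed the test. In limma over 27061 probe sets, 0 of the 10 member probe sets had an adjusted p below 0.05, where 0.00739% of all probe sets did, and each of the 10 had an adjusted p of 1. At an unadjusted p below 0.05 there were 2 members, both of Acat1, where the share over all probe sets was 3.72%. Those same 2 probe sets were the members whose groups did not overlap, and they stood lower in Cnot3+/- livers. Over all probe sets, 16.5% were separated in this direction and 14.5% in the other, in which no member was. By sign alone, 4 member probe sets were higher and 6 were lower, and their median difference was -0.03. The median over all probe sets tested was -0.01, with 48.6% of them higher. Each difference is the Cnot3+/- mean minus the wild-type mean in log2 units, and each SE is limma's moderated standard error.

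**Figure D1:**
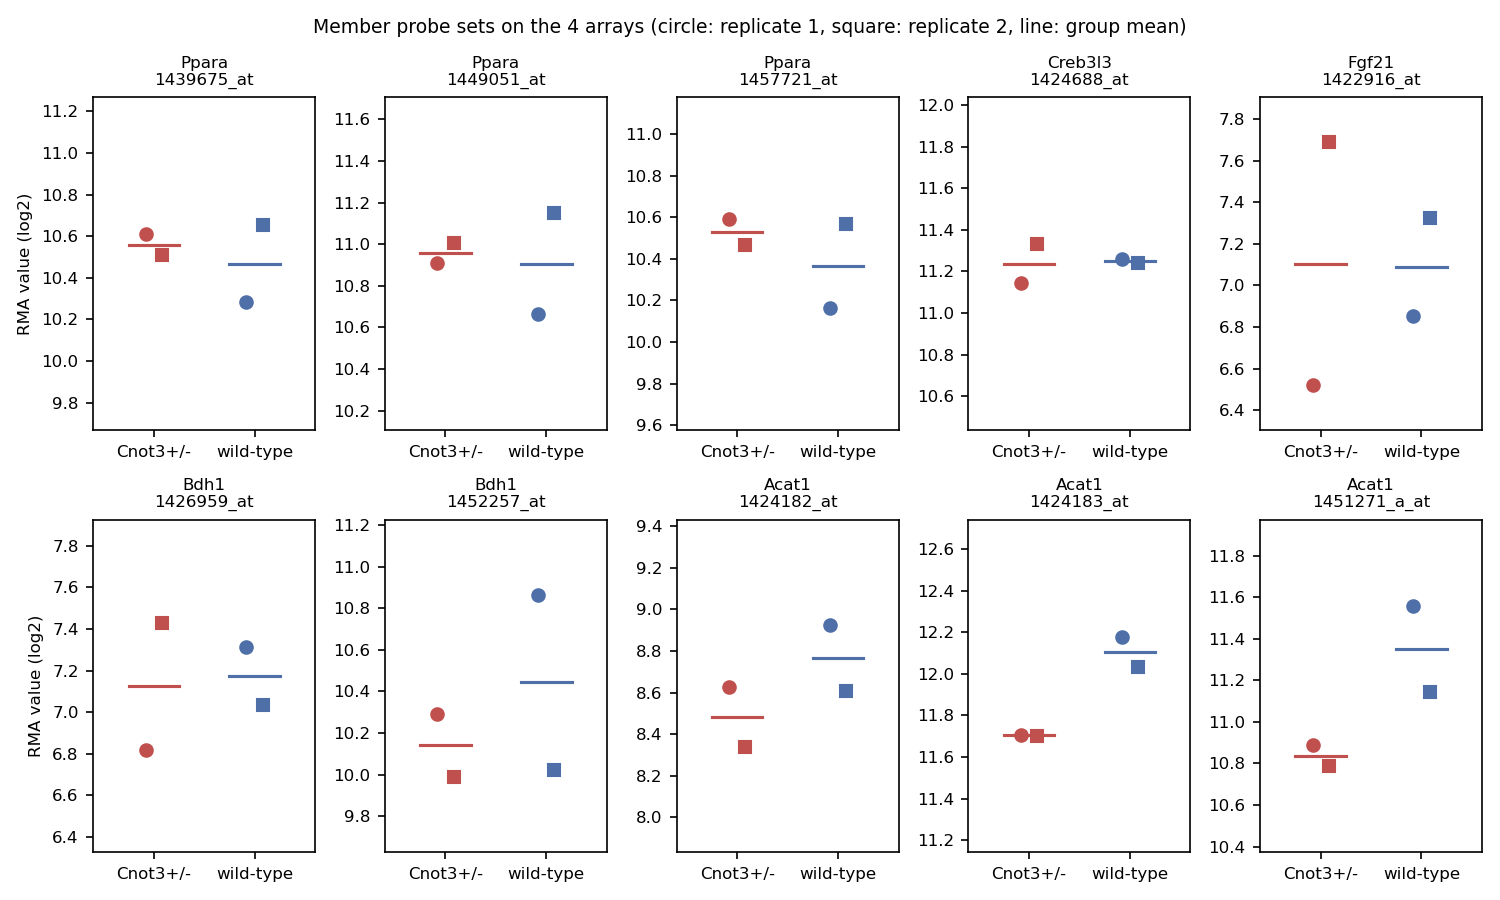
RMA values (log2) of the 10 member probe sets on each array, with Cnot3+/- at the left and wild-type at the right of each panel; circles are replicate 1, squares replicate 2 and lines group means, and every vertical axis spans the same range of log2 units but starts at its own level. The groups are apart on Acat1 probe sets 1424183_at and 1451271_a_at and overlap on the other 8.

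Ppara, the receptor gene, was measured near-alike by its 3 probe sets. On 1449051_at, its probe set of highest signal, the log2 values were 10.91 and 11.00 in Cnot3+/- livers, against 10.66 and 11.15 in wild-type livers. Both Cnot3+/- values thus lay between the wild-type values. They differed by 0.05 on average (SE 0.20, n = 2 per genotype, adjusted p = 1 in limma), and the 95% interval ran from -0.45 to 0.56. The other Ppara probe sets placed wild-type 1 lowest and wild-type 2 highest or nearly so. Probe set 1439675_at gave 10.61 and 10.51 in Cnot3+/- livers, against 10.28 and 10.65 in wild-type livers, and 1457721_at gave 10.59 and 10.47 in Cnot3+/- livers, against 10.16 and 10.57 in wild-type livers. Their differences were 0.09 (SE 0.18) and 0.17 (SE 0.18). All 3 turned below 0 without wild-type 1, to values between -0.19 and -0.04, and reached 0.28 to 0.37 without wild-type 2. The wild-type animals were 0.37 to 0.49 apart on these probe sets, more than the genotypes were. In fold terms, the 3 intervals reached down to 0.731 and up to 1.55, so a doubling or a halving of the Ppara signal lies outside them.

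Creb3l3, the membrane-held transcription factor gene, varied least of the members. Its values were 11.14 and 11.33 in Cnot3+/- livers, against 11.26 and 11.24 in wild-type livers. The Cnot3+/- animals enclosed the wild-type animals, which stood within 0.02 of each other. The difference was -0.02 (SE 0.14, adjusted p = 1). Its interval, from -0.38 to 0.35, corresponds to folds between 0.769 and 1.27. It turned to 0.08 without Cnot3+/- 1.

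Fgf21, the hormone gene, varied most of the members, and its spread lay within the genotypes. Its values were 6.52 and 7.69 in Cnot3+/- livers, against 6.85 and 7.32 in wild-type livers. The lowest and the highest Fgf21 signal of the study were thus those of the 2 Cnot3+/- animals, 1.17 apart, with the wild-type animals between them and 0.47 apart. The mean difference was 0.02 (SE 0.41, adjusted p = 1) with an interval from -1.0 to 1.03. Differences of up to about 2-fold in either direction thus lay inside the interval. The difference was 0.60 without Cnot3+/- 1 and -0.57 without Cnot3+/- 2.

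By list mean, macrophage, stellate cell and T and NK cell markers were highest on the array with the highest Fgf21 signal. Macrophage and Kupffer cell markers, 8 of 8 tested, had mean log2 values of 7.49 and 9.67 in Cnot3+/- livers, against 7.67 and 7.91 in wild-type livers. Stellate cell and fibroblast markers, 6 of 6 tested, had means of 6.56 and 7.50 in Cnot3+/- livers, against 6.87 and 6.92 in wild-type livers. T and NK cell markers, 3 of 5 tested, had means of 4.69 and 6.31 in Cnot3+/- livers, against 4.79 and 4.70 in wild-type livers. By their means these lists were highest in Cnot3+/- 2 and lowest in Cnot3+/- 1, as Fgf21 was. For T and NK cells, Cnot3+/- 1 and wild-type 2 were nearly level, near the array medians, and no gene tested was lowest in Cnot3+/- 1. Single genes of the other lists did not all follow. Marco, Adgre1, Cd5l, Des and Pdgfrb were not lowest in Cnot3+/- 1 either. There, Marco stood at 6.40, against 5.73 and 5.85 in wild-type livers, and Cd3e at 6.02, against 5.98 and 5.97. At the high end, Des stood at 6.30 in wild-type 2, against 6.28 in Cnot3+/- 2. The part of these cell types in the Fgf21 values was not tested. Exocrine pancreas, a tissue that also makes FGF21, had 3 of 7 markers tested, with means of 6.51 and 6.44 in Cnot3+/- livers, against 6.57 and 6.73 in wild-type livers. Cholangiocyte markers, 3 of 5 tested, had means of 4.70 and 4.94 in Cnot3+/- livers, against 4.46 and 4.61 in wild-type livers, and skeletal muscle markers, 3 of 5 tested, differed by a median of -0.01. Of the B cell and adipocyte lists 1 gene each was tested. The adipocyte gene, Cidea, stood at 8.09 in wild-type 1, against 4.39 to 4.67 on the other arrays. The adipocyte list rests on Cidea alone, since its other genes on the array had mean log2 values below the filter of 4.06. In whole liver, fewer cells of a type and less RNA per cell cannot be told apart.

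Bdh1, the beta-hydroxybutyrate dehydrogenase gene, gave a different order of animals on each of its 2 probe sets. On 1452257_at, the one of higher signal, the values were 10.29 and 9.99 in Cnot3+/- livers, against 10.86 and 10.02 in wild-type livers. Wild-type 1 stood apart above the other 3 animals there. The difference was -0.30 (SE 0.30, adjusted p = 1) with an interval from -1.06 to 0.46, and it turned to 0.12 without wild-type 1. On 1426959_at the values were 6.82 and 7.43 in Cnot3+/- livers, against 7.31 and 7.03 in wild-type livers, with a difference of -0.05 (SE 0.24). Here Cnot3+/- 2 was the highest animal and Cnot3+/- 1 the lowest, and the difference turned to 0.26 without Cnot3+/- 1 and to 0.09 without wild-type 1. The sources used here do not give where in the gene the probes of either one lie.

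Acat1, the mitochondrial acetoacetyl-CoA thiolase gene, had the same sign on its 3 probe sets and was the member with the lowest values in Cnot3+/- livers relative to wild-type. On 1424183_at, its probe set of highest signal, the values were 11.71 and 11.70 in Cnot3+/- livers, against 12.18 and 12.03 in wild-type livers. The Cnot3+/- animals stood within 0.01 of each other and below both wild-type animals. The difference was -0.40 (SE 0.14, adjusted p = 1 in limma), a fold of 0.757 with a 95% interval from 0.594 to 0.966.

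The other Acat1 probe sets leaned the same way. On 1451271_a_at the values were 10.89 and 10.79 in Cnot3+/- livers, against 11.56 and 11.14 in wild-type, again without overlap. This difference was -0.51 (SE 0.19, adjusted p = 1). On 1424182_at the values were 8.63 and 8.34 in Cnot3+/- livers, against 8.92 and 8.61 in wild-type livers, and the groups overlapped by a narrow margin between Cnot3+/- 1 and wild-type 2. That difference was -0.28 (SE 0.19). All 3 stayed below 0 with any 1 animal left out, between -0.72 and -0.12. The 3 probe sets read the same RNA of the same animals and are not replicates, and an unadjusted interval that leaves out 0 is no call among 27061 tests. Sinusoidal endothelial markers, 6 of 6 tested, were lower on the same arrays, with means of 6.69 and 7.48 in Cnot3+/- livers, against 7.50 and 7.63 in wild-type livers. Their median difference was -0.46, and their groups were apart for 3 of the 6, where 17.4% of all genes were apart on the lower side. An unadjusted p below 0.05 in limma was reached by 2, where 3.44% of all genes reached it. Clec4g, 1 of these 2, differed by -0.99, but its other probe set differed by -0.13. By list mean, Cnot3+/- 2 was nearly level with wild-type 1. Without Cnot3+/- 1, 2 of the markers were higher and 4 lower, and the median of the markers was -0.12. Their part in the Acat1 values was not tested.

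**Figure D2:**
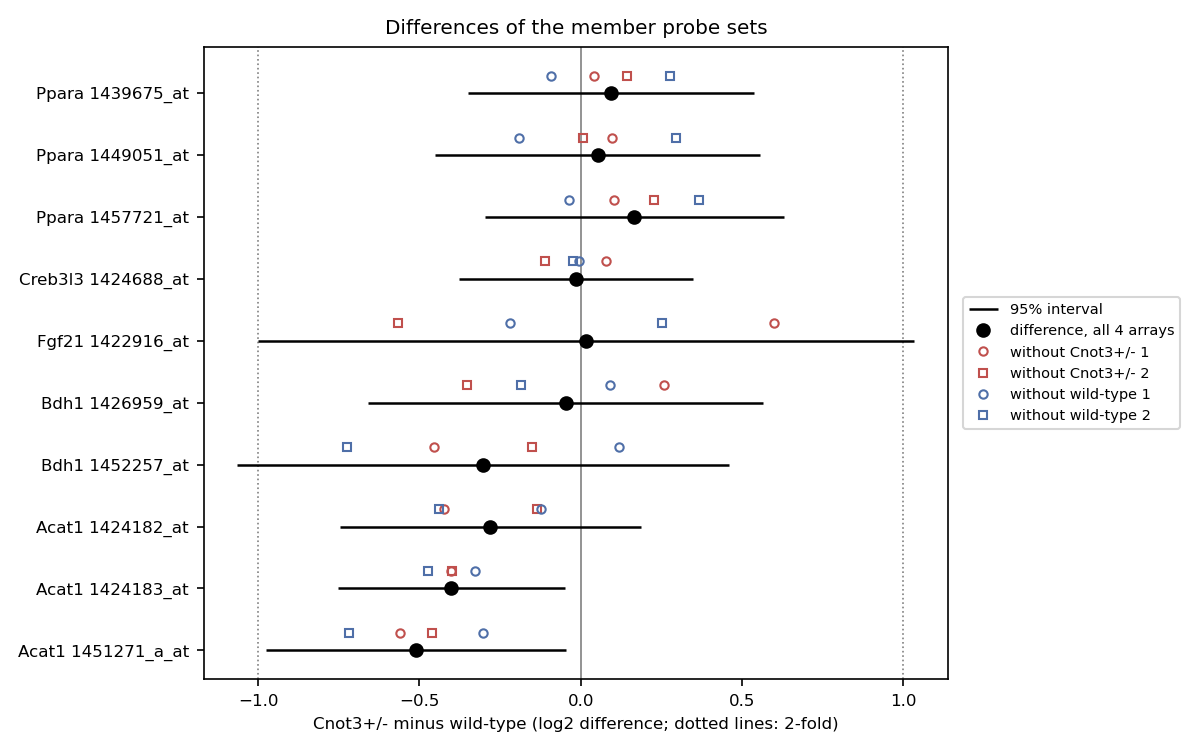
Log2 differences of the 10 member probe sets, Cnot3+/- minus wild-type, with 95% intervals as lines and, above each line, the difference with 1 array left out (red for a Cnot3+/- array, blue for a wild-type array; circles for replicate 1, squares for replicate 2). Dotted lines mark 2-fold. The intervals of 8 probe sets lie inside them, those of Fgf21 and of Bdh1 1452257_at do not, and the open symbols of Acat1 all lie below 0.

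The 2 members whose main probe set spanned at least 0.5 over the animals were searched for genes with the most similar profile. The measure was the root mean square distance between the 4 centred log2 values, over 12647 genes. Nearest to Fgf21 were Trib2 at a distance of 0.05, Tmem106a at 0.06 and Marcksl1 at 0.06, and 8 genes lay within 0.1. Trib2 stood at 3.56 and 4.64 in Cnot3+/- livers, against 3.90 and 4.40 in wild-type livers, in the same order as Fgf21. These are low signals, near the filter at a mean log2 value of 4.06. Nearest to Bdh1 were Sirt5, Dhrs7 and Bok, each at 0.03, and 55 genes lay within 0.1. Sirt5 stood at 7.31 and 7.07 in Cnot3+/- livers, against 7.92 and 7.06 in wild-type livers. With 4 points a profile is shared by many genes.

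Around the members, 5 lists with 94 different genes tested were compared. Of these genes 0 had an adjusted p below 0.05 in limma. An unadjusted p below 0.05 was reached by 6 genes (Acat1, Ppargc1a, Retsat, Vnn1, Apcs and Inhbe), where 3.44% of the 13380 genes tested with 1 probe set each reached it. Groups did not overlap in 14.1% of all genes in the higher direction and in 17.4% in the lower, and the median difference over all genes was -0.01. Members of the lists whose groups were apart were picked out after their values were seen.

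In the ketone body list, 10 of 14 genes were tested, with 4 higher and 6 lower and a median of -0.04. Without Cnot3+/- 1 these were 6 higher and 4 lower, with a median of 0.02. Groups were apart for 2 genes in each direction. Acat1 was joined on the lower side by Aacs, whose enzyme activates acetoacetate in the cytosol for lipid synthesis. Aacs stood at 8.33 and 8.35 in Cnot3+/- livers, against 8.58 and 8.70 in wild-type livers (difference -0.30, SE 0.14). Bdh2, a cytosolic relative of Bdh1, differed by -0.22 (SE 0.18). Oxct1, the ketone-using transferase gene that hepatocytes keep low, had the largest difference of the list at 0.81 (SE 0.34). Its 3 probe sets ran from 0.32 to 0.81. On the probe set of 0.81, the values were 5.68 and 6.72 in Cnot3+/- livers, against 5.39 and 5.38 in wild-type livers. Cnot3+/- 2, where the macrophage markers were highest, thus stood well above the other 3. Without that animal this probe set differed by 0.30. The part of other cell types in this value was not tested.

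Transport genes of the ketone body list lay close to wild-type, with 1 exception. Slc16a1, which encodes the monocarboxylate carrier MCT1, differed by 0.02 (SE 0.19), and Slc16a6, a ketone body exporter gene known from zebrafish liver, by -0.01 (SE 0.18). The Slc16a6 values, 4.53 to 4.84, lay near the array medians of 4.62 to 4.66, and at such low signal a difference can go unseen. Slc16a7, which encodes MCT2, stood at 9.15 and 9.07 in Cnot3+/- livers, against 8.73 and 8.91 in wild-type livers. Its groups were apart, as those of Oxct1 were, and it differed by 0.29 (SE 0.14).

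Among partners and coregulators of PPARalpha, 17 of 19 were tested. Of these 12 were higher and 5 lower, and the median was 0.20, or 0.13 with the probe sets of a gene averaged. Groups were apart on the higher side for Ppargc1a, Ncoa1, Ep300 and Crebbp, and on the lower side for Rxrg and Fabp1. Ppargc1a, the coactivator gene of the fasting liver, stood at 7.29 and 7.04 in Cnot3+/- livers, against 5.63 and 6.44 in wild-type livers. The difference was 1.13 (SE 0.29, adjusted p = 1 in limma). Its 5 probe sets differed by 0.58 to 1.13. Lpin1, a phosphatidate phosphatase that also coactivates PPARalpha, differed by 0.57 (SE 0.31) and Pparg by -0.53 (SE 0.29). Without Cnot3+/- 1 these were 0.24 and -0.14, and Lpin1 was also at 0.24 without wild-type 1. Rxra, the receptor that pairs with PPARalpha, stood at 10.38 and 10.37 in Cnot3+/- livers, against 9.90 and 10.43 in wild-type livers (difference 0.20, SE 0.21). Its other probe set differed by -0.09. On the first probe set Rxra was, like Ppara, lowest in wild-type 1. Without that animal the median of the list was -0.03.

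PPARalpha targets, among them Fgf21 and Creb3l3, had 33 of 37 genes tested. Of these 8 were higher and 25 lower, with a median of -0.04. That count rested on 1 animal: without Cnot3+/- 1, 18 were higher and 15 lower, and the median was 0.02. The mean of the list was 10.37 and 10.76 in Cnot3+/- livers, against 10.59 and 10.66 in wild-type livers, so the Cnot3+/- animals lay on either side of wild-type. Groups were apart on the lower side for 5 genes (Slc25a20, Acadl, Acaa1b, Vnn1 and Retsat), where 17.4% of all genes were. Among these 5, Acadl differed by only -0.02 (SE 0.13) and Slc25a20 by -0.14 (SE 0.14). Cpt1a, the gate of fatty acid entry into mitochondria, stood at 11.18 and 11.29 in Cnot3+/- livers, against 11.21 and 11.14 in wild-type livers, so the Cnot3+/- animals overlapped with wild-type. Acadm, the medium-chain acyl-CoA dehydrogenase gene, stood at 11.98 and 12.28 in Cnot3+/- livers, against 12.34 and 12.23 in wild-type livers. Neither the fatty acid hydroxylase gene Cyp4a14, at 12.79 and 12.85 in Cnot3+/- livers, against 12.70 and 12.80 in wild-type livers, nor the lipase inhibitor gene Angptl4, at 11.28 and 11.26 in Cnot3+/- livers, against 11.14 and 11.33 in wild-type livers, had its groups apart. Retsat, which encodes retinol saturase, had 12.29 and 12.16 in Cnot3+/- livers, against 12.97 and 12.89 in wild-type livers. Its groups lay clearly apart, with a difference of -0.70 (SE 0.14, adjusted p = 1 in limma), and its other probe set differed by -0.98. Pdk4 at 1.15 (SE 0.92) and Acot3 at -0.61 (SE 0.58) had the other large differences, and each turned sign when 1 animal was left out: Pdk4 to -0.26 without Cnot3+/- 2, and Acot3 to 0.07 without Cnot3+/- 1 and to 0.03 without wild-type 2.

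The genes that process CREB3L3 or that its protein is known to act on had 21 of 22 tested, with 13 higher, 8 lower and a median of 0.10. Groups were apart on the higher side for Apcs, Apoa4, Apoa1 and Insig2, and on the lower side for Inhbe, Mbtps1, Apoa5 and Apoc3. Mbtps1 and Mbtps2, the genes of the Golgi proteases that release CREB3L3, differed by -0.13 (SE 0.14) and 0.10 (SE 0.26). Apcs, the serum amyloid P gene and a CREB3L3 target in mouse, had the largest difference of this list at 1.16 (SE 0.28, adjusted p = 1). Its values were 11.49 and 10.73 in Cnot3+/- livers, against 10.09 and 9.80 in wild-type livers, with both Cnot3+/- animals above both wild-type animals. Apoa4, an apolipoprotein gene, stood at 10.49 and 11.32 in Cnot3+/- livers, against 10.47 and 10.08 in wild-type livers (difference 0.63, SE 0.31), and without Cnot3+/- 2 it differed by 0.21. Inhbe, which encodes a liver activin subunit, lay on the lower side, at 6.81 and 7.39 in Cnot3+/- livers, against 7.83 and 7.72 in wild-type livers (difference -0.67, SE 0.22). Without Cnot3+/- 1 it differed by -0.38.

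Receptors and inducers of FGF21 had 15 of 17 genes tested, with 10 higher, 5 lower and a median of 0.07. Without Cnot3+/- 1 these were 7 higher and 8 lower, with a median of -0.05. Klb, the gene of the FGF21 co-receptor, stood at 8.21 and 7.59 in Cnot3+/- livers, against 7.96 and 8.30 in wild-type livers (difference -0.23, SE 0.25), and the difference turned to 0.08 without Cnot3+/- 2. Fgfr1 and Fgfr4, its receptor partners, differed by -0.19 (SE 0.23) and 0.22 (SE 0.17). The other probe set of Fgfr1 differed by -0.07, and the 4 probe sets of Fgfr4 ran from -0.002 to 0.22. The Fgfr1 values, 4.42 to 5.04, were low signals near the array medians. Atf4, whose protein reads elements of the TTGCATCA kind and induces Fgf21 under amino acid stress, differed by 0.10 (SE 0.16), and its target Trib3 by 0.05 (SE 0.22). The 3 probe sets of Atf4 ran from -0.21 to 0.17, and the other probe set of Trib3 differed by 0.29. The largest differences were those of the stress kinase gene Eif2ak3 at 0.53 (SE 0.24), the nuclear receptor gene Rora at 0.39 (SE 0.16), and the bile acid receptor gene Nr1h4 at -0.35 (SE 0.20). These 3 genes had their groups apart, as had Eif2ak4 on the higher side and Fgfr3 on the lower. Without Cnot3+/- 2, Eif2ak3 differed by 0.28 and Nr1h4 by -0.12. The 8 probe sets of Rora ran from -0.06 to 0.49.

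**Figure D3:**
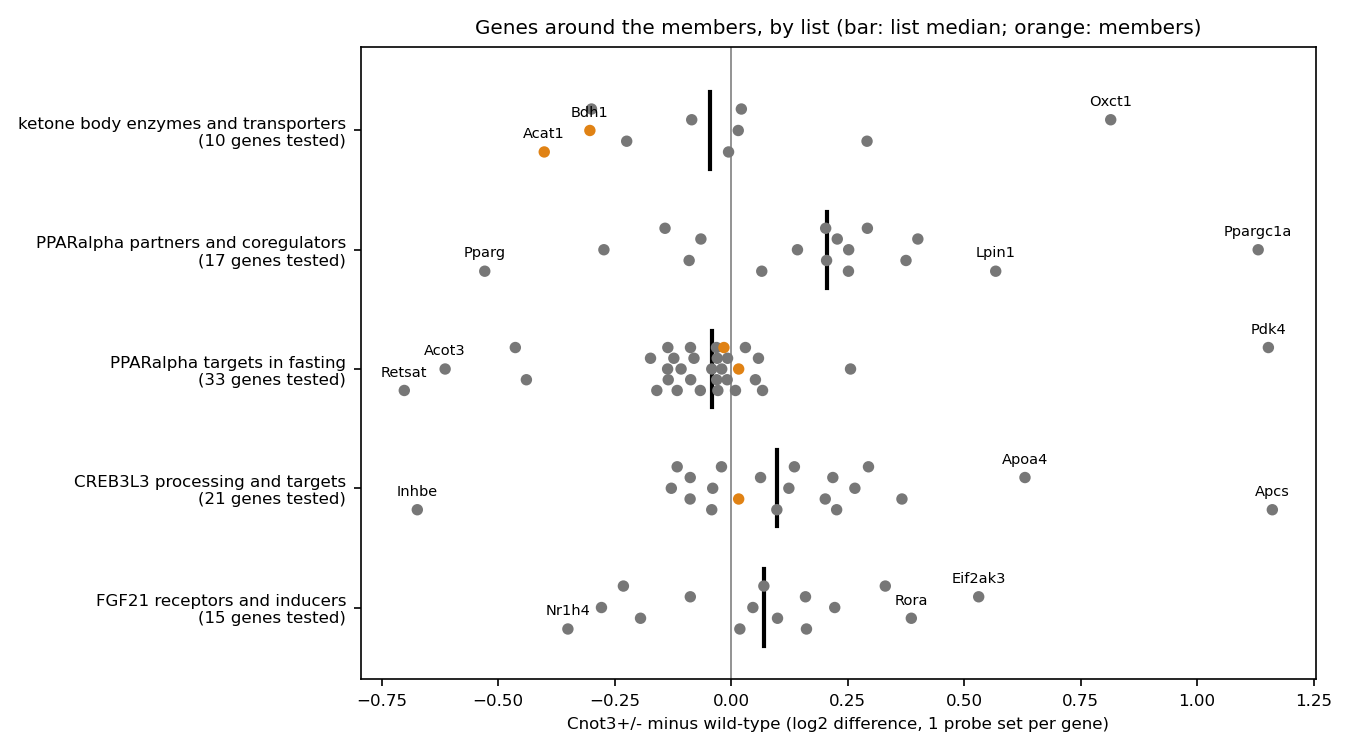
Log2 differences, Cnot3+/- minus wild-type, of the genes tested in each of the 5 lists, 1 probe set per gene; orange points are the members, black bars list medians, and the 3 genes of largest size per list are named (vertical offsets within a list only separate the points). Medians run from -0.04 in the ketone body and PPARalpha target lists to 0.20 among the partners and coregulators of PPARalpha.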

How the data were processed

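Per the submitters' processing notes, the authors computed the log2 values of the deposited table with RMA, which corrects background, normalizes arrays against each other and summarises the probes of a probe set. Neither its version nor the set of arrays it was run on is given in the sources used here. That the scale is log2 was read from the values. All 4 value columns were mapped, and 0 were left over. Symbols come from the platform annotation, which can be old, and the Entrez identifiers of all 5 members matched the GRCm38.p6 gene table.

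Probe sets with a mean log2 value below 4.06, the lowest 40%, were dropped, and all 10 member probe sets passed. The 27061 kept were fitted in limma 3.58.1 under R 4.3.3 (lmFit, eBayes; two-sided; no covariate), with p-values adjusted over all of them by Benjamini-Hochberg at a threshold of 0.05. There were 2 residual and 3.41 prior degrees of freedom. The fit was checked on simulated data. Intervals cover 95%. For lists, each gene had 1 probe set, that of highest mean, with _x_at or _s_at kinds used only where no other existed. This gave 13380 genes.

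The genes named are the members, the 3 genes of largest difference per list, a set of pathway genes and the genes of nearest profile. The members, lists and naming rule were chosen with earlier results of these data known. Alternatives were each array left out, the filter, the normalization, the replicate block, the variance prior and the summary per gene. Some genes of the lists are not analysed here. The labels call the samples of a genotype biological replicates.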

Additional observations from a re-analysis of the deposited data

How the results depend on the processing

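The member genes had no call under any of the 13 alternatives, and their lowest adjusted p was 0.804. With 1 array left out at a time, differences ran from -0.19 to 0.30 for Ppara 1449051_at, -0.092 to 0.28 for 1439675_at and -0.036 to 0.37 for 1457721_at, from -0.11 to 0.079 for Creb3l3, from -0.57 to 0.60 for Fgf21, from -0.72 to 0.12 for Bdh1 1452257_at and from -0.35 to 0.26 for 1426959_at. The 3 Acat1 probe sets kept their sign under every alternative run. Quantile normalization turned Fgf21 to -0.020, against 0.016 as deposited. The median difference of a list ran from -0.13 to 0.018 for ketone body genes, -0.027 to 0.33 for PPARalpha partners, -0.17 to 0.021 for PPARalpha targets, 0.035 to 0.13 for CREB3L3 genes and -0.046 to 0.21 for FGF21 receptors and inducers when 1 array was left out. An array left out sets a lone animal, assumed to vary like the others, against 2.

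Over all probe sets, 2 were called, and 0 with any array left out, where 1 residual degree of freedom remained. With the replicate block the number was 0 as well. The labels give the groups the same replicate numbers but no shared litter or day. Across the 27061 probe sets, the gap between animals 1 and 2 in Cnot3+/- and in wild-type correlated at 0.17, over probe sets that are not independent. The cause of the other changes was not tested.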
